A study of Canis lupus familiaris with 8 samples.

Results

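EGR1, EGR2 and EGR3 encode zinc-finger transcription factors, and NAB1 and NAB2 encode the corepressors that bind them. These 5 genes were taken by name from the deposited table of exon counts, which holds 37952 genes, and all 5 passed the filter on low counts. The RNA came from MDCK GII, an epithelial line of dog kidney, plated as monolayers on a collagen-coated elastic silicone membrane and sequenced after polyA selection. Stretch wells (n = 4) were held for 2 hours under 18% static strain, applied equally in both in-plane directions, and the wells labelled control (n = 4) were plated by the same protocol. The labels describe the wells of a group as technical quadruplicates, placed at random over separate devices, so every p-value here measures the spread between wells of 1 cell line. By its title, the series concerns signalling from E-cadherin under tension to EGFR and ERK.

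EGR genes are immediate-early genes: their transcription starts within minutes of a signal and needs no new protein. ERK phosphorylates ternary complex factors such as ELK1, which sit with serum response factor (SRF) on the EGR1 promoter, and the EGR proteins then bind GC-rich sites in their own target genes. NAB1 and NAB2 dock on an inhibitory domain shared by EGR1, EGR2 and EGR3 and turn these factors into repressors. NAB2 recruits the chromatin remodeller CHD4 of the NuRD complex and is itself known as an EGR target, which makes the pair a negative feedback loop. EGR4 lacks the NAB docking domain.

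Total counts ranged from 27047358 to 32478887 per well, and 14571 genes were tested. All 12 epithelial and renal tubule markers examined had a mean of at least 1 CPM (reads of a gene scaled to a common library total). CDH1, the gene of E-cadherin, had a mean of 617 CPM in control wells and 620 CPM in stretch wells. Of the blood markers, PTPRC and CD3E had no counts, and of the mesenchymal markers COL1A2, COL3A1, LUM and DCN had none. CD14 had 6.30 CPM in control wells, PDGFRA, a mesenchymal marker, 3.07 CPM and KDR, an endothelial marker, 1.40 CPM. Deviations of same-numbered wells from their group means correlated by 0.199 on average, and by 0.180 with 1 and 2, and 3 and 4, exchanged. Pairing by number was therefore not told apart from 2 sets of wells (replicates 1 and 2, replicates 3 and 4). Genes were tested without a block and with the replicate number as a block. Without the block, 0 of the 14571 genes passed an adjusted p of 0.05 in edgeR (579 had an unadjusted p under 0.05), a background of 0%, and 0 of the 5 EGR and NAB genes did. Every gene named below therefore missed the threshold in that fit, and the calls below rest on the block unless another fit is named. With the block, 0.7% of the genes passed (0.528% higher and 0.172% lower), and 1 of the 5 did. At an unadjusted p under 0.05 there were 2 of the 5 without the block (EGR1 and EGR3), beside 3.97% of all genes, and 3 of the 5 with it (EGR2 added), beside 8.89%.

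EGR1 was the gene that passed, and it was by far the most abundant EGR transcript. It lies on chromosome 11 (26096153 to 26099996, plus strand, assembly UU_Cfam_GSD_1.0) in 2 exons and overlaps no other annotated gene. Control replicates 1 to 4 had 224, 251, 193 and 224 CPM, and stretch replicates 1 to 4 had 292, 362, 283 and 260 CPM. Every stretch well was above every control well, which held for 1.3% of the tested genes (1.24% had every stretch well below), and stretch replicate 2 was the highest of all wells. The mean went from 223 ± 23.7 to 299 ± 43.9 CPM (SD, n = 4 each). With the block, EGR1 rose by 0.42 ± 0.05 (SE) on the log2 scale, a fold of 1.34 with a 95% interval from 1.24 to 1.44 (edgeR, adjusted p = 0.00169). Without the block the log2 change was 0.42 ± 0.11, and it did not pass (edgeR, adjusted p = 0.716, unadjusted 0.00291). A block with only 2 levels (replicates 1 and 2, replicates 3 and 4) gave an adjusted p of 0.0668 in edgeR, where 0.398% of the genes passed. DESeq2 without any block gave an adjusted p of 0.0308, where 0.286% of its genes passed, and with the replicate block 1.1e-10, where 1.48% did.

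**Figure D1:**
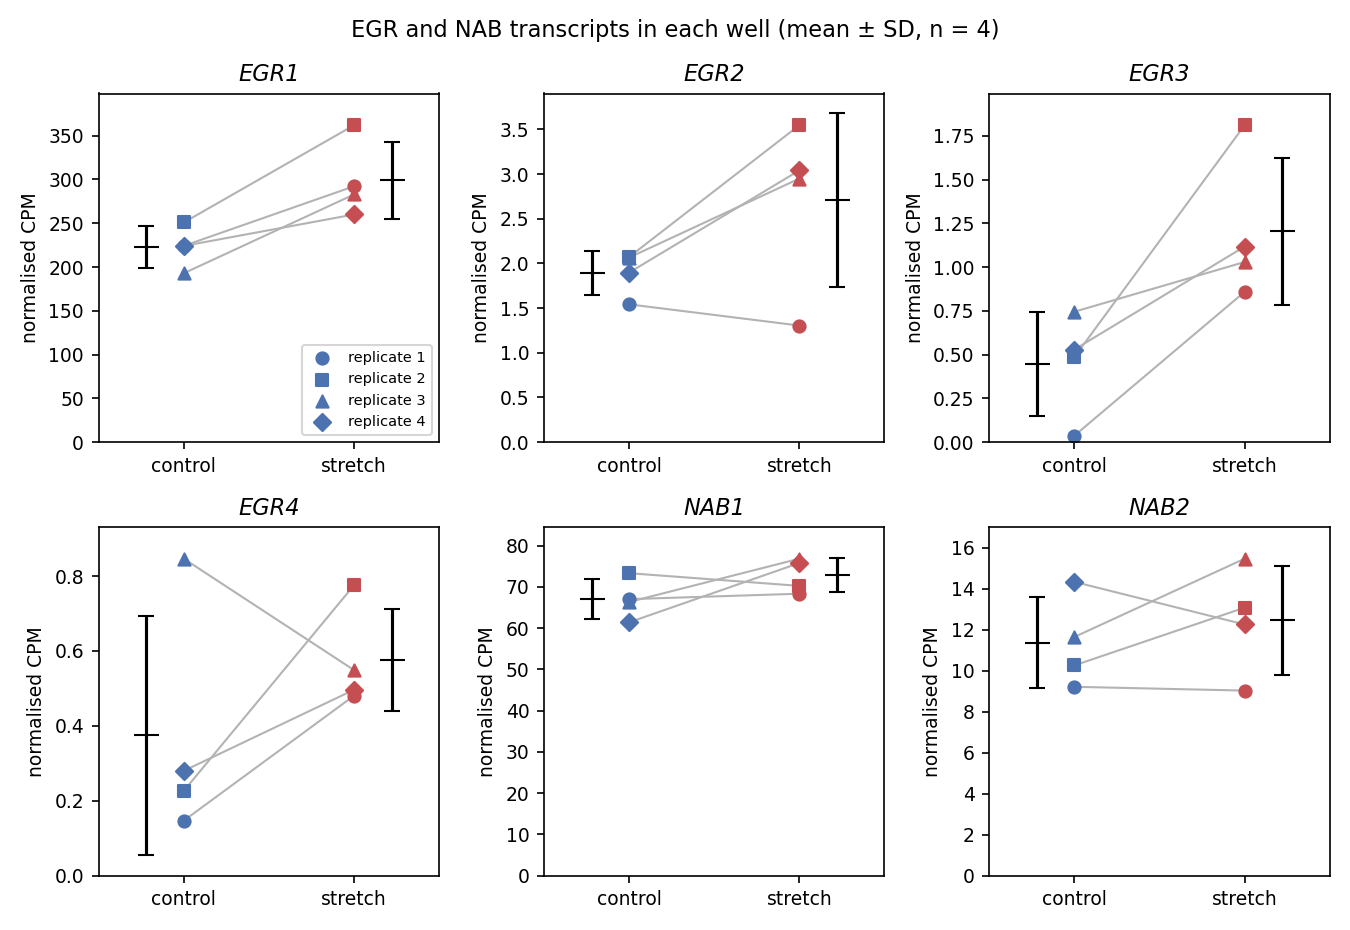
Normalised CPM (vertical axes, from 0, a different scale in each panel) for 6 genes in the 4 control and 4 stretch wells. Symbols mark replicate numbers, grey lines join wells of the same number, and black bars give the mean ± SD. For EGR1 and EGR3 the stretch wells all lie above the control wells, from 260 to 362 against 193 to 251 CPM for EGR1, while the groups overlap for EGR2, EGR4, NAB1 and NAB2.

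The change in EGR1 was present in each pair of same-numbered wells. Replicates 1 to 4 differed by 0.38, 0.53, 0.55 and 0.21 in log2 CPM, all higher after stretch, which was so for 8.45% of the tested genes. Within replicates 1 and 2 alone the log2 change was 0.46, and within replicates 3 and 4 alone it was 0.39 (edgeR, adjusted p = 0.425 and 0.0609). The difference between these sets of wells did not pass as an interaction term (edgeR, unadjusted p = 0.638, adjusted 0.987). For that term 0% of the genes passed (0.0686% with the block), and 0 of the 5 members did in either fit. In order of p with the block, EGR1 was number 13 of the 14571 genes. Among the 77 genes called higher it was number 31 by log2 change and number 4 by level per exon length, so its change was of a middle size for that group and its level was near the top.

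EGR3, a relative of EGR1 that is induced by many of the same signals, had the largest fold difference of the 5 genes at a very low level. It lies on chromosome 25 (34757654 to 34763098, plus strand) in 3 exon blocks. Control replicates 1 to 4 had 1, 15, 22 and 17 reads, and stretch replicates 1 to 4 had 25, 49, 30 and 36. Normalised, these were 0.0367, 0.485, 0.745 and 0.529 CPM in control wells and 0.858, 1.81, 1.03 and 1.12 CPM in stretch wells. All stretch wells were again above all control wells, and control replicate 1 stood lowest with a single read. The summed reads were 55 in the control group (exact Poisson 95% interval 41.4 to 71.6) and 140 in the stretch group (118 to 165), intervals that cover counting error only.

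The fitted log2 change of EGR3 was 1.45 ± 0.39 (SE) with the block, with a 95% interval of the fold from 1.54 to 4.88. It did not pass the threshold with the block (edgeR, adjusted p = 0.131, unadjusted 0.0020) or without it (log2 change 1.39, adjusted p = 0.999). With the block but no low-count filter EGR3 passed (edgeR, adjusted p = 0.00132), where 448 of 21962 tested genes did. All 4 pairs were higher after stretch, by 3.15, 1.76, 0.43 and 0.99 in log2 CPM. With the block and without the low well's pair, replicate 1, the log2 change was 1.14 (edgeR, adjusted p = 0.384), and without pair 3 it was 1.86 and passed (edgeR, adjusted p = 0.0177). Within replicates 1 and 2 the log2 change was 2.27, and within replicates 3 and 4 it was 0.76. These did not differ past the threshold (edgeR interaction, unadjusted p = 0.0804, adjusted 0.893, and 0.0331 and 0.656 with the block).

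EGR2, known for its role in the myelin programme of Schwann cells and in hindbrain patterning, did not pass in any of the 30 fits, of which DESeq2 with the block gave no adjusted p for it. Its annotation on chromosome 4 (15433193 to 15537238, minus strand) is long, with 13 exon blocks, and 1 gene on the opposite strand overlaps it and had 0 counts in all wells. Control replicates 1 to 4 had 1.54, 2.07, 2.07 and 1.90 CPM, and stretch replicates 1 to 4 had 1.30, 3.55, 2.95 and 3.04 CPM. In 3 of 4 pairs the stretch well was higher, and stretch replicate 1 was the lowest of the 8 wells, so the groups overlapped. Fitted log2 changes were 0.48 ± 0.20 (SE, blocked) and 0.51 ± 0.26 (unblocked), with adjusted p of 0.477 and 0.999 in edgeR. Its interval with the block ran from a fold of 1.04 to 1.87 and so contained the fold of EGR1.

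EGR4 was added as the remaining relative with the same DNA-binding fingers. It was counted at 4 to 25 reads per control well and 14 to 21 per stretch well, on chromosome 17 (50084062 to 50087036). Control replicate 3, at 0.846 CPM, was the highest well of both groups. The log2 change with the block was 0.71 ± 0.43 (SE), with an interval of the fold from 0.863 to 3.08 (edgeR, adjusted p = 0.744), and without the block it was 0.60 ± 0.47 (adjusted p = 0.999). The size moved with single pairs. With the block it was 1.39 without pair 3, 0.38 without pair 2 and 0.52 without pair 1 (edgeR, adjusted p = 0.275, 0.943 and 0.925). Unblocked, it was 1.36 without control replicate 3 and 0.36 without control replicate 1 (edgeR, adjusted p = 0.639 and 0.999). WT1, a zinc-finger factor that binds similar GC-rich sites, had 0 counts in every well.

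NAB1, the first of the corepressors, was the more abundant of them. It lies on chromosome 37 (1101123 to 1137919, plus strand) in 7 exon blocks and overlaps no other gene. Control replicates 1 to 4 had 67.0, 73.3, 66.4 and 61.4 CPM, and stretch replicates 1 to 4 had 68.4, 70.3, 76.9 and 75.8 CPM. The groups overlapped, with stretch replicates 1 and 2 inside the control range and stretch replicates 3 and 4 above it. The mean went from 67.0 ± 4.89 to 72.8 ± 4.15 CPM (SD, n = 4 each). The log2 change was 0.12 ± 0.06 (SE) with the block, a fold of 1.09 with an interval from 0.999 to 1.18, and it missed the threshold in edgeR (adjusted p = 0.575, and 0.999 unblocked). With the block it was 0.19 without pair 2 and 0.06 without pair 4 (edgeR, adjusted p = 0.346 and 0.859). Within replicates 1 and 2 the log2 change was -0.02 and within replicates 3 and 4 it was 0.26. This difference had an unadjusted p of 0.0100 as an interaction term in edgeR and did not pass over all genes (adjusted p = 0.717, and 0.480 with the block).

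NAB2, the corepressor known as an EGR target, did not pass in any of the 30 fits. It lies on chromosome 10 (1580762 to 1586620, plus strand). Control replicates 1 to 4 had 9.22, 10.3, 11.6 and 14.3 CPM, and stretch replicates 1 to 4 had 9.03, 13.1, 15.5 and 12.3 CPM. The groups overlapped over nearly their whole range, and 2 of the 4 pairs were higher after stretch. With the block the log2 change was 0.13 ± 0.11 (SE), with an interval of the fold from 0.932 to 1.28 (edgeR, adjusted p = 0.851), and without the block it was 0.13 ± 0.17 (adjusted p = 0.999). The value moved with single pairs: with the block it was 0.25 ± 0.11 without pair 4 and 0.03 ± 0.11 without pair 3 (edgeR, adjusted p = 0.561 and 0.983). NAB2 is followed on the opposite strand by STAT6 (1587736 to 1597208), named here only for its position, which had 139 ± 8.12 CPM in control and 133 ± 6.09 CPM in stretch wells. Their annotated spans do not overlap.

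**Figure D2:**
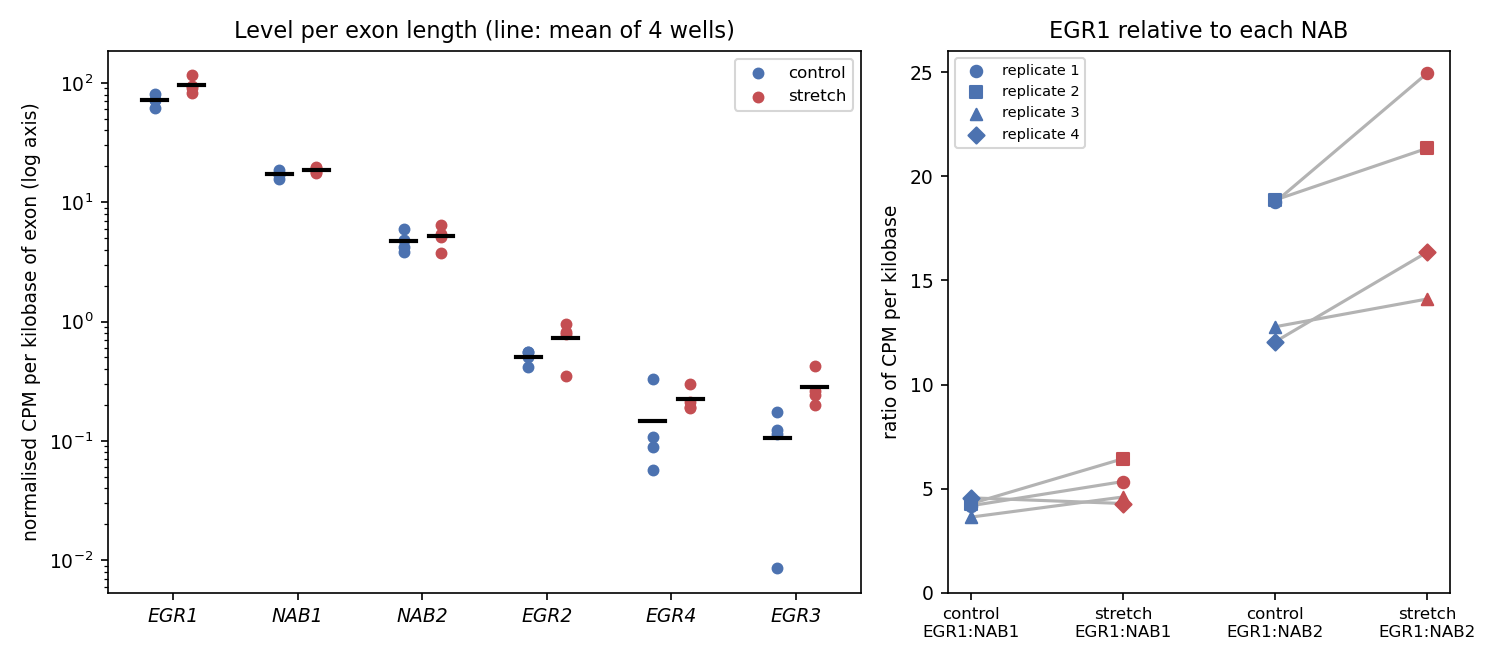
Left, normalised CPM per kilobase of exon (log axis) for 6 genes, 4 control and 4 stretch wells each, with the mean as a line. Right, the ratio of EGR1 to NAB1 and to NAB2 on the same per-length scale (axis from 0), with grey lines joining wells of the same number. EGR1 lies above both corepressors in every well, and its ratio to NAB2 ranges from 12.1 to 18.9 in control and from 14.1 to 25.0 in stretch wells.

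Levels were compared between genes as CPM per kilobase of exon, where the length is that of all annotated exons of a gene together. In control wells the order was EGR1 (71.4 ± 7.59), NAB1 (17.2 ± 1.25), NAB2 (4.72 ± 0.920), EGR2 (0.506 ± 0.0663), EGR4 (0.146 ± 0.124) and EGR3 (0.105 ± 0.0693; SD, n = 4 each). EGR4 and EGR3 did not differ beyond their spread, and the wells of all other neighbours in this order did not overlap. The level of EGR1 was above that of 91.1% of the tested genes in control wells and 93.7% in stretch wells, while EGR3 was above 1.73% and 6.30%. In stretch wells the means of EGR3 (0.281 ± 0.0975) and EGR4 (0.223 ± 0.0531) were in the opposite order, again within their spread. EGR1 made up 98.9 ± 0.432% of the summed per-length level of the 4 EGR genes in control wells and 98.7 ± 0.327% in stretch wells.

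The level of EGR1 relative to its corepressors is given as a description, with no test. Per exon length, the ratio of EGR1 to NAB1 was 4.16 ± 0.388 in control and 5.17 ± 0.956 in stretch wells (SD, n = 4 each), and it was higher after stretch in 3 of 4 pairs. The ratio of EGR1 to NAB2 was 15.6 ± 3.71 in control and 19.2 ± 4.89 in stretch wells, higher in 4 of 4 pairs. Replicates 3 and 4 had lower EGR1 to NAB2 ratios than replicates 1 and 2 in both groups, at most 16.4 against at least 18.8. The ratio of NAB1 to NAB2 was 3.77 ± 0.869 in control and 3.72 ± 0.709 in stretch wells, and the pairs were evenly divided.

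**Figure D3:**
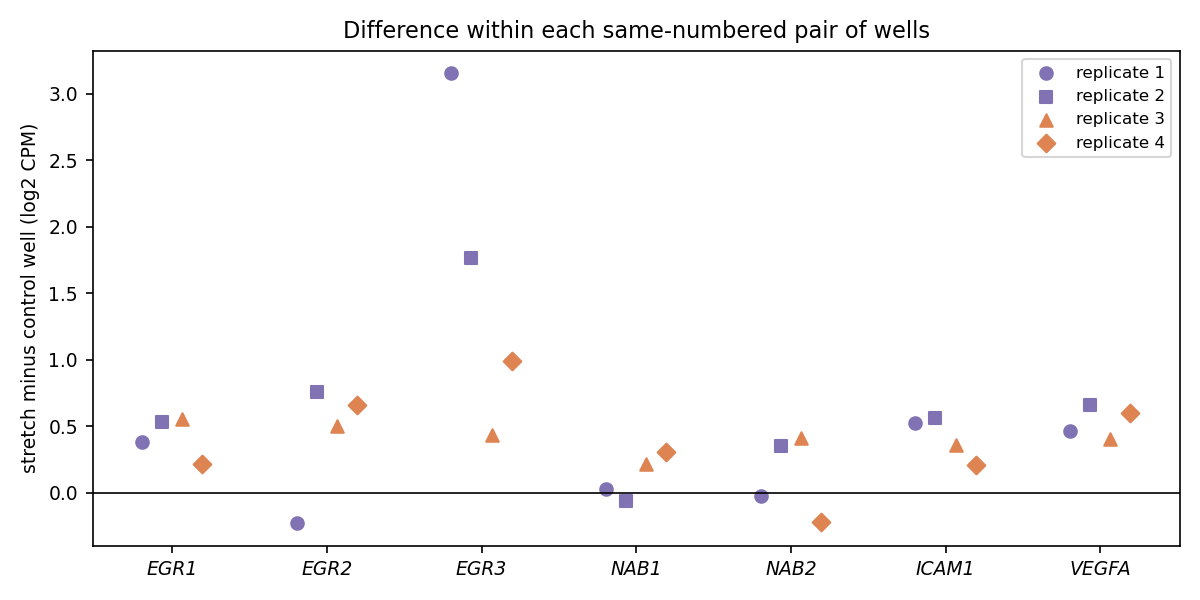
Difference between the stretch and the control well of the same replicate number, in log2 CPM (vertical axis), for the 5 EGR and NAB genes and for ICAM1 and VEGFA. Symbols mark replicate numbers, with replicates 1 and 2 in purple and 3 and 4 in orange. EGR1, EGR3, ICAM1 and VEGFA are above 0 in all 4 pairs, EGR2 and NAB1 in 3, and NAB2 in 2.

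Transcripts of the factors that act on the EGR1 promoter or signal to it did not pass. The list held SRF, ternary complex factors, the myocardin-related coactivators, CREB1, ERK, MEK and the RSK and MSK kinases. All 15 were tested, and 0 passed without or with the block in edgeR, beside 0% and 0.7% of all genes. At an unadjusted p under 0.05 there were also 0 in either fit, beside 3.97% and 8.89%. Their log2 changes with the block ran from -0.13 to 0.10, with a median of -0.0077 beside -0.0022 over all tested genes. SRF was the member with the smallest p, at a mean of 34.2 CPM in control and 36.6 CPM in stretch wells (log2 change 0.10 ± 0.05, edgeR with the block, adjusted p = 0.649). RPS6KA1 (RSK1) and RPS6KA4 (MSK2) followed, with log2 changes of 0.06 and -0.05. These values are transcript levels and hold no measure of phosphorylation.

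Subunits of the NuRD complex, through which NAB2 represses, had 12 of 13 listed genes tested, and 0 passed in edgeR without or with the block, beside 0% and 0.7% of all genes. At an unadjusted p under 0.05 there were 0 and 1, beside 3.97% and 8.89%. Log2 changes with the block ran from -0.12 to 0.02 (median -0.02). CHD4, the NAB2-binding remodeller, had 283 ± 12.4 CPM in control and 273 ± 8.34 CPM in stretch wells (log2 change -0.05 ± 0.04, edgeR with the block, adjusted p = 0.786). MBD3 and MTA1, structural subunits, had log2 changes of -0.12 each (edgeR with the block, adjusted p = 0.428 and 0.672). The list of EGR1 coactivators and factors that share GC-rich sites had 6 genes, all tested, of which 0 passed in edgeR without or with the block, beside the same 0% and 0.7%. At an unadjusted p under 0.05 there were 0 and 2, beside 3.97% and 8.89%. All 6 had log2 changes below 0, from -0.10 to -0.02, where 48.8% of all tested genes were above 0. SP1, which binds overlapping GC-rich sites, and the acetyltransferase genes CREBBP and EP300 had log2 changes of -0.10, -0.10 and -0.07 (edgeR with the block, adjusted p = 0.503, 0.525 and 0.675).

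**Figure D4:**
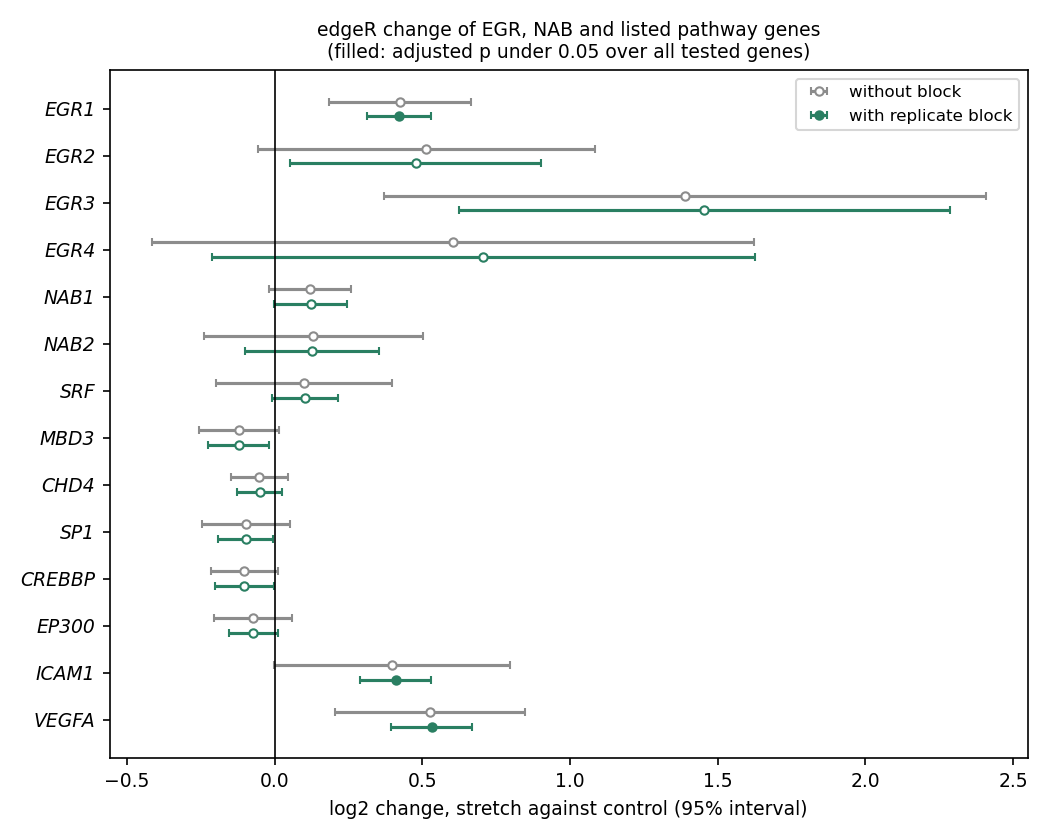
Log2 change of stretch against control (horizontal axis) with its 95% interval in edgeR, without a block (grey) and with the replicate block (green), for the EGR and NAB genes and for genes of the listed pathway groups. Filled symbols passed an adjusted p of 0.05 over all 14571 tested genes. With the block these are EGR1, ICAM1 and VEGFA, and without it there are 0.

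Among genes described as EGR targets, ICAM1 and VEGFA rose with the block. The list of 26 genes was drawn from general knowledge of other tissues and was not tied to binding in these cells. Of the 22 tested, 2 passed with the block in edgeR, both higher, beside 0.528% of all genes called higher, and 0 passed without it, beside 0%. At an unadjusted p under 0.05 there were 6 with the block, beside 8.89%, and 3 without it, beside 3.97%. With the block, 15 of the 22 had log2 changes above 0, where 48.8% of all tested genes did, and the median was 0.07 beside -0.0022.

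VEGFA, the gene of the main angiogenic growth factor, lies on chromosome 12 (12398451 to 12413981). It had 17.8, 19.1, 27.4 and 20.2 CPM in control replicates 1 to 4 and 24.6, 30.3, 36.2 and 30.6 CPM in stretch replicates 1 to 4. Control replicate 3 was above stretch replicate 1, and the other wells did not overlap. With the block VEGFA rose by 0.53 ± 0.06 (SE) on the log2 scale (edgeR, adjusted p = 6.1e-04, and 0.865 without the block), and its adjusted p under the 2-level block was 0.0305.

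ICAM1, the gene of a leukocyte adhesion molecule on chromosome 20 (51216377 to 51225401), had 44.3, 49.1, 73.4 and 64.3 CPM in control and 63.5, 72.5, 93.9 and 74.5 CPM in stretch replicates 1 to 4. The groups overlapped, and each stretch well was above the control well of its own number. With the block ICAM1 rose by 0.41 ± 0.06 (SE) on the log2 scale (edgeR, adjusted p = 0.00203, and 0.999 without the block). Without pair 1 it no longer passed (log2 change 0.37, edgeR with the block, adjusted p = 0.0513), nor did it with the block of 2 levels (adjusted p = 0.125). It overlaps 1 gene on the opposite strand, which had 4 counts over all wells.

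F3, PLAU, CDKN1A and ALOX5 were singled out after their values were seen, because their log2 changes with the block were above that of EGR1 without passing. F3 (tissue factor), PLAU (urokinase) and CDKN1A (the p21 cell-cycle inhibitor) had log2 changes of 0.44, 0.49 and 0.45, with adjusted p of 0.753, 0.156 and 0.381 in the blocked edgeR fit. ALOX5, at no more than 21 reads per well, differed by 0.85 on the log2 scale (blocked edgeR fit, adjusted p = 0.576). Other well-known targets, also chosen after their values were seen, lay close to 0: the log2 changes with the block were -0.02 for TGFB1, 0.03 for PDGFA and -0.03 for FN1. TNF and FASLG had 0 counts in every well, and GDF15 had at most 1.

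The genes whose profile over the 8 wells was most like that of a member were ranked by the root mean square difference of centred log2 CPM, among 13135 genes with a mean of at least 1 CPM. For EGR1 the nearest were TCF15, LOC119878118, DRC3, THBS1 and ZNF41, at 0.0689 to 0.127. Of these, THBS1, the gene of the matrix protein thrombospondin-1, passed with the block (691 ± 44.0 to 955 ± 95.5 CPM, log2 change 0.46, edgeR, adjusted p = 0.00311) and missed without it (log2 change 0.47, adjusted p = 0.0937). The other 4 had at most 2.87 CPM in either group's mean and did not pass. Of the other members, NAB1 had the smallest distance to EGR1, at 0.234. The distance is not scaled to a gene's own variation, so it does not show that NAB1 followed EGR1.

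For EGR3 the nearest genes were GPR4, SPRY4, ANKRD1, DUSP2 and FOSB, at a distance of 0.589 to 0.657, so none was as close as those of EGR1. None of the 5 passed with the block (edgeR, adjusted p from 0.112 to 0.519). SPRY4 and DUSP2 encode feedback inhibitors of ERK signalling, FOSB an AP-1 subunit, and ANKRD1 a known YAP target. For EGR2 the nearest were TST, SLC17A2, AQP10, SYDE1 and FLRT3 (0.238 to 0.251), and for NAB2 they were ZDHHC18, MARS2, ZNF263, LOC111096329 and LOC111091702 (0.0703 to 0.0986). None of these 10 passed with the block in edgeR.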

How the data were processed

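The authors deposited a table of raw exon counts, 1 column per well, and the submitters' processing notes name FastQC 0.11.8, Trim Galore 0.6.5, STAR 2.7.3a, Subread and featureCounts. The labels describe stranded polyA libraries, and the strand setting of the counting is not given in the sources used here. Coordinates are those of the table: 37291 of its symbols matched RefSeq genes of UU_Cfam_GSD_1.0, all with the same start and end. Wells were matched to columns by library name.

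Counts were filtered with filterByExpr (minimum count 10, minimum total 15), scaled with TMM factors and tested in R 4.3.3 by edgeR 4.0.16 (glmQLFit with robust estimation, glmQLFTest; intercept and stretch term). P-values are two-sided and adjusted by Benjamini-Hochberg over all 14571 tested genes, with 0.05 as the threshold. SEs are the log2 change over the root of its F statistic. Log2 CPM used a prior count of 2. No 2 wells of a group agreed within sampling noise (chi-square per degree of freedom 5.56 to 26.8 over genes with at least 50 counts).

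The replicate numbers, shared by both groups in the titles, were checked for pairing from the deviations of wells from their group means. The correlation across genes was 0.328, 0.108, 0.182 and 0.178 for numbers 1 to 4, each over 0.1, so the numbers were treated as pairing the wells. Exchanging 1 with 2 and 3 with 4 gave a mean of 0.180 beside 0.199. Of the 4 control wells, 1 correlated best with the stretch well of its own number. These values do not tell pairing by number apart from 2 sets of wells, replicates 1 and 2 and replicates 3 and 4. What equal numbers had in common is not given in the sources used here.

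Alternatives were DESeq2 1.42.0, limma-voom (limma 3.58.1), other scalings and filters, blocks and left-out wells. The members and the lists were chosen with earlier results of these data known. Genes were named by a rule: the 5 members, listed genes past the threshold, otherwise the 3 of a list with the smallest p, and the 5 nearest profiles of EGR1, EGR2, EGR3 and NAB2. Outside this rule, F3, PLAU, CDKN1A, ALOX5, TGFB1, PDGFA, FN1, TNF, FASLG, GDF15, WT1 and STAT6 were named after their values were seen. Some listed genes are counted in their list but not reported here by name. The statistics were tested on simulated data drawn with a shift shared by same-numbered wells. That test assumes the pairing and cannot show whether the numbers pair the real wells. Figures used matplotlib 3.10.9 under Python 3.11.15.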

Additional observations from a re-analysis of the deposited data

Results flagged for a closer look

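For CHD4, stretch replicate 2 had 261 CPM while the other stretch wells had 275 to 278 CPM, a gap that was 0.849 of the group's range and above Dixon's 95% critical value for 4 samples. This was the single such case among 36 groups of wells examined (EGR, NAB and listed pathway genes), and chance gives about 1 in 20, or 1.8.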

How the results depend on the processing

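The count of EGR and NAB genes called was 0 in edgeR without the block and moved with the model. It was 1 (EGR1) with the replicate block, with DESeq2 without a block, and with the block under DESeq2, limma-voom, DESeq2 size factors, library size only and at least 10 counts in every well. It was 2 (EGR1 and EGR3) with the block and no low-count filter, where 448 of 21962 tested genes passed. Leaving out single wells without the block kept it at 0, and leaving out pairs with the block gave 1 to 2. EGR1 passed in 11 of 11 fits with the replicate block (adjusted p from 2.8e-23 to 0.0198) and 1 of 19 without it (0.0308 to 1.000). Its log2 change ran from 0.32 to 0.49 over the 29 alternatives.

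Listed pathway genes called numbered 0 without the block, 2 with it, 1 with the block of 2 levels and 2 within replicates 1 and 2 alone. With the block they were 3 under DESeq2, 7 without a count filter and 2 under limma-voom, DESeq2 size factors, library size only and at least 10 counts in every well. Leaving out a pair gave 2 to 4, and a single well, without the block, 0 to 0. Over all genes, the count was 0 without the block, 40 with DESeq2 and 11 without a count filter (of 21962 tested). It was 58 with the block of 2 levels, 51 with replicates 1 and 2 alone and 25 with replicates 3 and 4 alone. With the replicate block it was 102, with DESeq2 145, limma-voom 100, DESeq2 size factors 105 and library size only 111. Also with that block, it was 448 with no count filter (of 21962 tested) and 97 with at least 10 counts in every well (of 13706). Leaving out 1 well without the block gave 0 to 12, and pairs 1 to 4 with it 43, 67, 186 and 74. Of the 5 EGR and NAB genes, 0 passed the interaction in any of the 16 alternatives run for it, while over all genes 0 passed it without the block and 10 with it.

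Reversed log2 changes were those of NAB1 within replicates 1 and 2 (-0.019) and EGR4 within replicates 3 and 4 (-0.085). EGR3 and EGR4 were filtered out at 10 counts in every well. The cause of these differences was not tested. EGR3 and EGR4 had fewer than 50 reads in every well, which limits the precision of their values.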
